A study of Drosophila melanogaster with 4 samples.

Results

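Tight runs of CP190 clusters are stretches of a chromosome where regions enriched for the protein CP190 follow each other at short distance. They were taken from the combined list of enriched regions (clusters) of wild-type Drosophila melanogaster embryos. The clusters were chosen by called position and length. A cluster of a large arm (X, 2L, 2R, 3L or 3R, 5 in all) belonged to a tight run when it was shorter than 3500 bp and its midpoint lay at most 5000 bp from the midpoints of both the previous and the next cluster. This held for 553 of the 7960 clusters of the combined list, or 7.70% of the 7182 clusters of that length range on these arms (the first and last cluster of each arm left out). Because the rule used these values, the number, spacing and length of these clusters are a description with no test. As each list holds 1 set of calls and clusters are not replicates, no test was run on the other measures either, and 95% intervals (exact, Clopper-Pearson) cover counting error over clusters only.

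CP190 is a zinc-finger protein with a BTB domain, through which it contacts itself and other proteins. DNA-binding insulator proteins such as CTCF and Su(Hw) recruit it to chromatin, where it is known from borders between chromatin domains and from promoters of active genes. Insulators limit the reach of enhancers and of repressive chromatin, and neighbouring insulator sites can contact each other in space.

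The 4 samples were all wild-type Oregon-R whole embryos, labelled as 14 to 16 h old and fixed with formaldehyde, and the labels give no other treatment or allele. In 2 of them chromatin was immunoprecipitated with the antibody CP190-HB (ChIP), and the other 2 were input chromatin, which entered only through the authors' own calls. The protocol for collecting embryos states no lower age, and separate collections for the ChIP replicates are not mentioned. Whole embryos pool all cell types, so clusters of 1 run occupied in the same cells and clusters occupied in different cells cannot be told apart. Each list gives a cluster's start, end and 1 value, treated as the log2 of an enrichment ratio and called the log2 score. The lists were scored separately, read depth is unknown for all 3, and coordinates are on FlyBase release 5. No annotation of that release was used, so no gene, exon or promoter is assigned to any cluster.

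The 553 clusters were the inner clusters shorter than 3500 bp of 392 runs of at least 3 clusters. In 17 of these runs every inner cluster was 3500 bp or longer, so they held none of the 553. A run is an unbroken series of clusters, of any length, with every neighbouring midpoint distance at most 5000 bp. The runs held 1367 clusters, namely 784 run ends, the 553 inner clusters and 30 inner clusters of 3500 bp or more, which the rule left out. Most runs were short. Of the 392 runs, 268 had 3 clusters, 75 had 4, 35 had 5, 11 had 6, 2 had 7 and 1 had 8. Together they spanned 4.07 Mb, or 3.42% of the 5 arms, with a median span of 9743.5 bp. In the median run 66.8% of the span was called as enriched.

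Clusters within runs were mostly separated by sequence that was not called. Over the 975 neighbouring pairs the median midpoint distance was 3358.5 bp, with quartiles of 2581.5 and 4183.25 bp. The median gap between the edges of neighbours was 1309 bp and the widest gap was 3937 bp. A gap of at least 1000 bp was present in 60.5% of pairs, while 88 pairs (9.03%) lay less than 200 bp apart and 1 pair touched. Few clusters of the replicate lists bridged such gaps. In replicate 1, 2 clusters covered a pair of run clusters, in replicate 2 there were 9, and none covered 3 in either list.

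**Figure D1:**
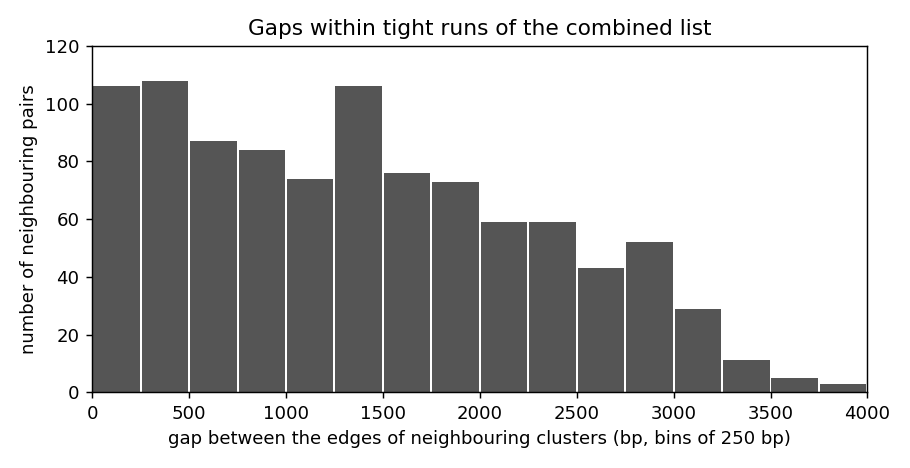
Gaps between the edges of neighbouring clusters within tight runs of the combined list (horizontal axis, bp, in bins of 250 bp) against the number of the 975 neighbouring pairs (vertical axis). Gaps run from 0 to 3937 bp with a median of 1309 bp, and no single gap width dominates.

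The run with most clusters lay on 3L at 16573992 to 16597086, where 8 clusters filled 23095 bp. Its clusters had combined log2 scores from 0.26 to 0.45, beside a median of 0.41 over the combined list. The strongest of them, at 16579819 to 16582548, had a log2 score of 0.45 in the combined list, 0.51 in replicate 1 and 0.42 in replicate 2. The sixth cluster, at 16587167 to 16589196, had 0.39, 0.54 and 0.41 in the same order, and the last, at 16594881 to 16597086, had 0.39, 0.40 and 0.47. These 3 were found in both replicates, which means that they overlapped a cluster of each replicate list by at least 1 bp. A further 3, with combined log2 scores of 0.35, 0.31 and 0.34, were found in replicate 1 only. The first and the second cluster, with 0.34 and 0.26, were found in neither, so the run appeared as 6 clusters in replicate 1 and as 3 in replicate 2.

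A run of 7 clusters on 3R, at 5901527 to 5920462, was stronger, and 5 of its clusters were found in both replicates. Its strongest cluster, at 5914092 to 5917849, was itself 3758 bp long and so outside the length limit, with log2 scores of 0.88 combined, 0.74 in replicate 1 and 1.03 in replicate 2. Clusters at both run ends also had support from both replicates, with combined log2 scores of 0.60 and 0.65. The inner clusters between them were weaker. The inner cluster at 5909625 to 5911294 had 0.38 combined, 0.48 in replicate 1 and 0.43 in replicate 2, and that at 5912042 to 5914040 had 0.33, 0.23 and 0.55. The cluster at 5904499 to 5906107 had the lowest log2 score of all 553, 0.12, with 0.31 in replicate 2 and no cluster in replicate 1. Only the cluster at 5907470 to 5908702, with 0.42, was found in neither replicate. Replicate 1 listed 5 clusters in this run and replicate 2 listed 6.

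The second run of 7 clusters on 3R, at 4125691 to 4146614, mixed strong and weak clusters. Its first cluster, a run end at 4125691 to 4128223, had log2 scores of 1.01 combined, 1.01 in replicate 1 and 1.08 in replicate 2. The inner cluster at 4140985 to 4144392 had 0.98, 1.21 and 1.18, and that at 4130089 to 4133141 had 0.70, 0.67 and 0.76. The inner clusters at 4128349 to 4130064, 4133425 to 4135452 and 4137975 to 4139103 had combined log2 scores of 0.33, 0.39 and 0.38, and the other run end at 4145575 to 4146614 had 0.57. Of these, the second was found in both replicates, the first in replicate 2 only, and the 1129 bp cluster and the 1040 bp run end in neither.

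On X no run had more than 6 clusters, and 3 had 6. Runs with the same number of clusters were ordered by mean midpoint distance, shortest first, so the X run described here, at 11480255 to 11494777, has the shortest span of the 3 (14523 bp), and its tight spacing follows from that choice. Its 6 clusters were 1925 to 2063 bp long. Neighbouring midpoints were 2112, 2043, 2169.5, 4155.5 and 2063.5 bp apart, and apart from the gap of 2110 bp the gaps were 87 to 170 bp wide. The run end at 11480255 to 11482288 and the inner cluster at 11486565 to 11488627 had combined log2 scores of 0.78 and 0.81 and were found in both replicates, where the first scored 1.03 and 0.75 and the other 1.00 and 0.89. The inner cluster at 11490738 to 11492765 had 0.76 and was found in replicate 1 only (0.98). The clusters at 11482400 to 11484367 and 11484459 to 11486394 had log2 scores of 0.62 and 0.54 and were found in neither replicate. Among the 217 tight-run clusters without replicate support they had the second and the third highest log2 score.

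**Figure D2:**
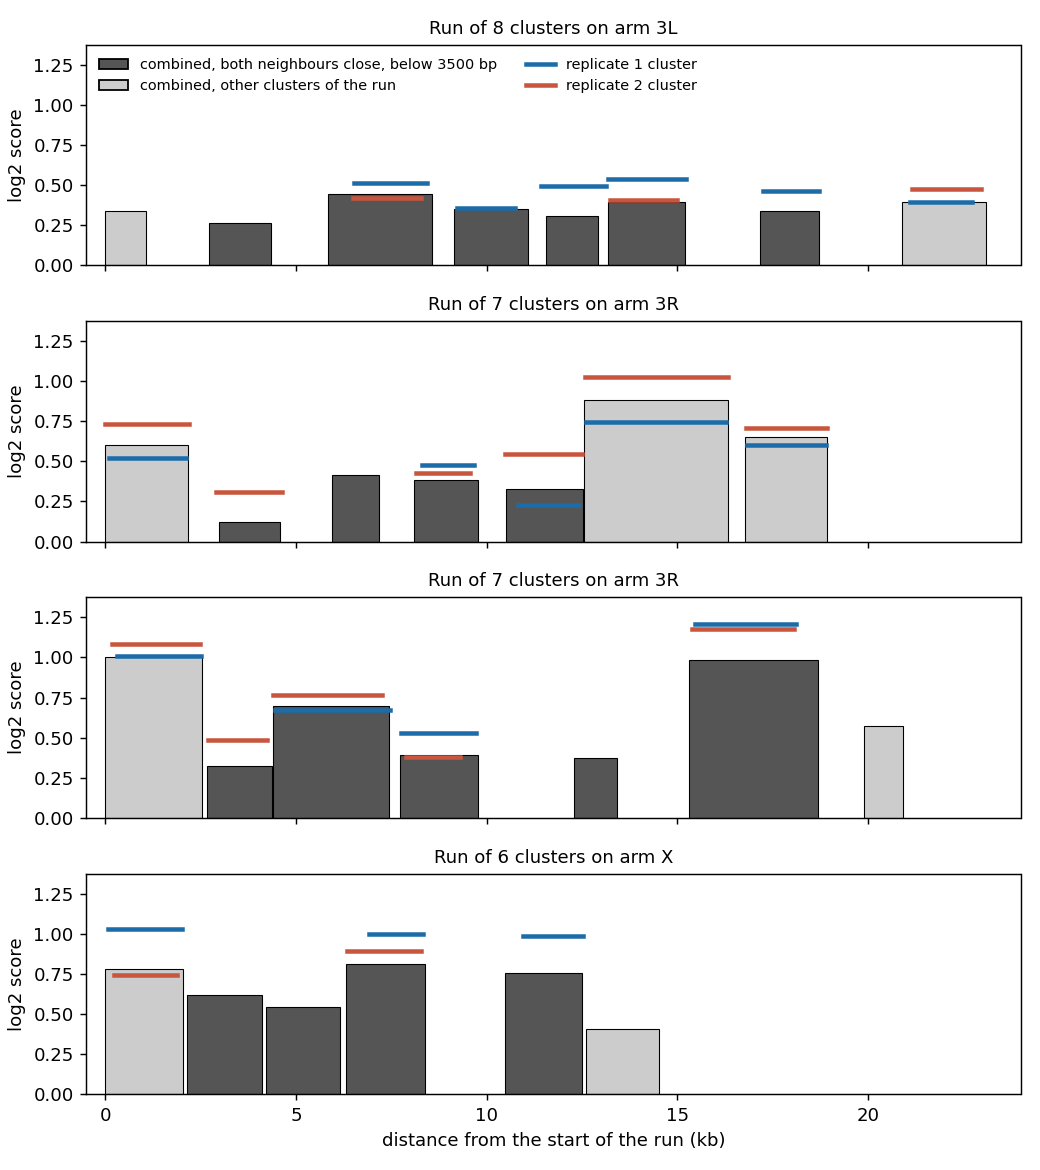
The 3 runs with most clusters and the most closely spaced of the X runs of 6 clusters. Boxes are clusters of the combined list (width: extent in kb from the start of the run; height: log2 score), dark where the cluster has both neighbours close and is shorter than 3500 bp, and coloured lines are the overlapping clusters of replicate 1 and replicate 2 at their own log2 scores. The run of 8 on 3L stays at or below 0.45 in the combined list, and each run has at least 1 box that carries no line.

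Runs of 6 clusters numbered 11 in all, 3 of them on 2R and 1 on 2L. The most closely spaced of those on 2R, at 17055752 to 17071182, had log2 scores from 0.27 to 0.55, with 2 clusters found in both replicates and 4 in neither. That of 2L, at 16782856 to 16803046, had 0.21 to 0.61, with 2 in both, 1 in replicate 2 only and 3 in neither. A further 5 runs of 6 clusters were among the first 10 in this order. The first lay on 3R at 18566198 to 18581662. X had runs at 14839362 to 14857257 and at 1346567 to 1364405. The others were the 2R run at 10504788 to 10522339 and the 3L run at 9359104 to 9377564. Their strongest clusters had log2 scores of 0.66, 1.50, 0.61, 1.55 and 0.99 in the same order. In these, 1 to 3 clusters were found in both replicates and 1 to 4 in neither. The 3 remaining runs of 6 were more widely spaced. The 3L run at 1187878 to 1209262 and the 2R run at 19538811 to 19560525 had 4 clusters found in both replicates, and the 3R run at 24487261 to 24508827 had 2.

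The runs with the shortest mean midpoint distance were triples with little replicate support and log2 scores of at most 0.46. On X at 13976012 to 13980527, 3 clusters followed each other with gaps of 19 and 35 bp, so that 98.8% of the span was called. Their log2 scores were 0.26, 0.36 and 0.41, and the first and the second overlapped a cluster of replicate 2 only (0.50 and 0.49). A further triple on X at 19113631 to 19118731 had log2 scores of 0.32, 0.43 and 0.46, of which the first was found in replicate 2 only. A triple on 3L at 8945373 to 8950754 had 0.28, 0.38 and 0.36, with no cluster in either replicate.

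Few tight-run clusters had high log2 scores. Their median log2 score was 0.38 (quartiles 0.33 and 0.51). It was 0.39 for the 2750 clusters of the same arms and lengths with 1 close neighbour and 0.41 for the 3879 with none. A log2 score of at least 1 was reached by 30 tight-run clusters (5.42%, 95% interval 3.69 to 7.65%), against 7.60% (6.64 to 8.65%) with 1 close neighbour and 9.62% (8.71 to 10.6%) with none. Of the 30, 29 were found in both replicates, beside 206 of 209 with 1 close neighbour and 348 of 373 with none. The strongest tight-run cluster ranked 98 in the whole combined list and 55 on the 5 arms.

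That strongest cluster lay on 3R at 12030059 to 12032568, as the third of 4. Its log2 score was 1.96 combined, 1.76 in replicate 1 (rank 81) and 2.18 in replicate 2 (rank 43). The other clusters of the run had combined log2 scores of 0.44, 0.32 and 0.37, and none of them was found in replicate 1. On X the highest was at 10660879 to 10663636, with 1.85 combined, 1.87 in replicate 1 and 2.04 in replicate 2. It was the second of 5 clusters, of which the first and the penultimate, with 0.77 and 0.72, were also found in both replicates. On 2R the highest was at 10511071 to 10513392, with 1.55, 1.46 and 1.70, while the other 5 clusters of that run had 0.34 to 0.39.

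A further 2R cluster at 19553387 to 19555657 had log2 scores of 1.54 combined, 1.36 in replicate 1 and 1.74 in replicate 2. It was 1 of 4 clusters found in both replicates in a run of 6, and the first of them, a run end at 19538811 to 19541170, was stronger still (1.78, 1.75 and 1.83). On the same arm the cluster at 19504258 to 19506709 had 1.53, 1.36 and 1.74, and the run end before it, at 19501191 to 19503625, had 2.00, 2.02 and 2.01. At these 2R places strong clusters stood in the same run.

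The highest tight-run cluster of 2L, at 9611668 to 9614384, had log2 scores of 1.45 combined, 1.25 in replicate 1 and 1.66 in replicate 2. The next on that arm, at 20289676 to 20292342, had 1.42, 1.32 and 1.57. It stood in a run of 4 clusters that were all found in both replicates, with combined log2 scores of 0.56, 0.61, 1.42 and 1.14. On 3L the highest was at 20393640 to 20395887, with 1.38, 1.30 and 1.47. The remaining 2 of the 10 highest lay on 3R, at 15315807 to 15318052 with 1.47, 1.35 and 1.45, and at 17009541 to 17011768 with 1.40, 1.44 and 1.39. In all 10 the combined log2 score was at least 1.38, and in 9 of them replicate 2 scored higher. Replicate 2 also scored higher in most clusters found in both replicates, whether both, 1 or no neighbour was close.

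The strongest cluster of most runs was supported by both replicates. It was found in both replicates in 292 of 392 runs (74.5%) and in neither in 62 (15.8%), and it was 3500 bp or longer in 43. Of the partners of neighbouring pairs within runs, 40.3% were found in both, where an inner cluster counts once in each of its pairs. The strongest cluster is picked by log2 score, with which support rose in every group, so a higher share comes with the choice. The strongest cluster was an inner cluster in 131 of 392 runs (33.4%), and in 117 of these it was shorter than 3500 bp. Inner clusters of any length made up 42.6% of all run clusters. In the 268 triples the middle cluster was the strongest in 71 (26.5%), the first in 95 and the last in 102. The strongest was an inner cluster in 36 of the 75 runs of 4 (48.0%), 16 of the 35 runs of 5 (45.7%) and 6 of the 11 runs of 6 (54.5%). Inner places make up 33.3% of a triple and 50.0, 60.0 and 66.7% of runs of 4, 5 and 6. In each case the share of runs with an inner strongest cluster was lower than that, though by little in runs of 4. Runs of 5 and 6 were few, and no interval was computed. Middle clusters of triples, of any length, were found in both replicates in 35.4% (95% interval 29.7 to 41.5%), first clusters in 47.0% (40.9 to 53.2%) and last clusters in 42.5% (36.5 to 48.7%).

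Replicate support was lower in tight runs than on the arms as a whole. Of the 553 clusters, 188 were found in both replicates (34.0%, 95% interval 30.1 to 38.1%), against 43.9% of all 7182 clusters of that length range. A further 48 (8.68%) were found in replicate 1 only, against 7.83%, and 100 (18.1%) in replicate 2 only, against 14.7%. The remaining 217 (39.2%, 35.1 to 43.4%) were found in neither, against 33.5%. Support fell with the number of close neighbours, from 46.6% found in both with none (45.0 to 48.2%) and 42.2% with 1 (40.4 to 44.1%) to the 34.0% of tight runs. Run ends, of any length, had 45.0% (41.5 to 48.6%). How the replicates entered the combined list is not known, so its overlap with them is not an independent measure.

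Score and length moved with this difference, and their part in it was not tested. The median length was 1842 bp in tight runs, 1953.5 bp with 1 close neighbour and 1987 bp with none, and long clusters cannot stand as close as short ones. The shortest cluster of either replicate list was 1301 bp, and 135 tight-run clusters (24.4%, 20.9 to 28.2%) were shorter, against 19.8% with 1 close neighbour and 19.9% with none. None of those 135 was found in both replicates, which allows a share of up to 2.70% (upper 95% bound), and neither was any of the 544 and 771 clusters below that length with 1 or no close neighbour. At 1301 bp or more, 45.0% of tight-run clusters (40.1 to 49.9%) were found in both, against 52.6% (50.5 to 54.7%) with 1 close neighbour and 58.1% (56.4 to 59.9%) with none.

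When clusters were split into 4 equal parts by log2 score, the groups stood apart in 1 of the 4 parts. In the highest part, at 0.58 or more, 102 of 106 tight-run clusters (96.2%, 90.6 to 99.0%) were found in both replicates, beside 95.7% with 1 close neighbour and 95.4% with none. In the part below, from 0.40 to 0.58, it was 37.4% (29.1 to 46.3%), against 51.5% (47.7 to 55.4%) and 52.6% (49.4 to 55.8%). From 0.33 to 0.40 it was 17.7%, against 19.2 and 20.6%, with overlapping intervals. In the lowest part it was 6 of 141 (4.26%, 1.58 to 9.03%), against 9.65 and 9.90%, and the intervals overlapped there too. Between 1701 and 2200 bp, the length bin with most tight-run clusters, 101 of 202 (50.0%) were found in both, against 51.1 and 55.7%, again with overlapping intervals.

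**Figure D3:**
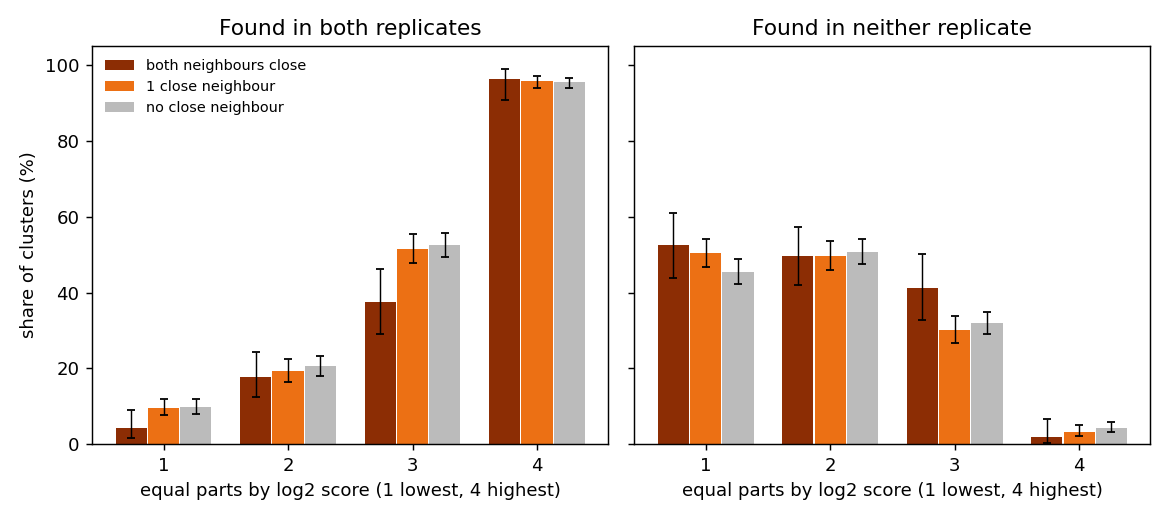
Share of clusters found in both replicates (left) and in neither (right), by 4 equal parts of the combined log2 score, for clusters below 3500 bp on the 5 large arms with both neighbours close (tight runs), 1 close neighbour or none. Bars are shares in percent with exact 95% intervals over clusters. In the highest part all 3 groups lie above 95% for both replicates, and in the part below the tight-run bar (37.4%) is the lowest.

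Clusters found in both replicates were the stronger and longer part of the tight runs. Their median log2 score was 0.60 and their median length 2175.5 bp. The 217 without any replicate support had medians of 0.36 and 1240 bp. The highest-scoring tight-run cluster without replicate support was a short one on 2R at 7360387 to 7361402, 1016 bp long with a log2 score of 1.32. It stood between an unsupported cluster with 0.43 and one at 7362121 to 7364340 with 0.81, which was found in both replicates (0.64 and 1.07).

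Where tight-run clusters were found in both replicates, the replicates ranked them alike. Over the 187 that overlapped exactly 1 cluster in each list, the replicate log2 scores had a Spearman correlation of 0.767, across clusters that share their libraries. It was 0.790 over 1157 clusters with 1 close neighbour and 0.801 over 1806 with none. Replicate 1 scores ran from 0.23 to 1.87 with a median of 0.58, and replicate 2 scores from 0.34 to 2.18 with a median of 0.68. Replicate 2 scored higher in 125 of the 187 (66.8%), beside 69.7% of those with 1 close neighbour and 71.3% with none. The mean difference over the 187 was 0.08 ± 0.17 (SD over clusters), beside 0.09 in each other group, and the lists were scored separately. The midpoints in the replicates differed by a median of 45 bp, small against the spacing within runs.

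**Figure D4:**
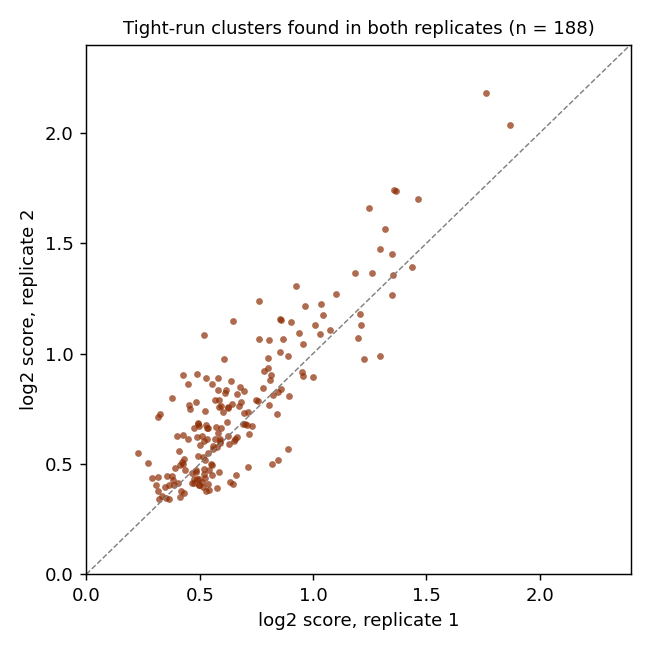
Log2 score in replicate 2 (vertical axis) against that in replicate 1 (horizontal axis) for the 188 tight-run clusters found in both replicates, using the cluster with the largest overlap in each list. Each point is 1 cluster and the dashed line marks equal scores; most points lie above the line, and scores reach 1.87 and 2.18.

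Few runs were supported along their whole length. In 22 runs (5.61%) every cluster was found in both replicates, in 76 (19.4%) none was, and in 10 (2.55%) all clusters were found in neither. Of the partners of neighbouring pairs within runs, 40.3% were found in both, where an inner cluster counts once in each of its pairs. At about that share full support of 3 or more clusters is rare even without any link between them. No expected number was computed. The longest fully supported runs had 5 clusters and lay on 2R at 9840548 to 9856706, with log2 scores from 0.46 to 0.90, and on 3L at 18008829 to 18027126, with 0.37 to 0.98. A further 4 of the 22 had 4 clusters. The pair on X spanned 18405543 to 18415714 and 1273623 to 1288033, and the pair on 2L spanned 7728230 to 7738834 and 20282159 to 20295258. At least 3 clusters of a replicate list lay in 85 runs for replicate 1 and in 124 for replicate 2, and in 61 runs this held for each list.

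Log2 scores of neighbours within runs were at most weakly related. The Spearman correlation of log2 scores between neighbouring clusters was 0.081 over the 975 pairs of tight runs and 0.091 over 1057 pairs up to 5000 bp apart outside them. Both partners were found in both replicates in 17.6% of the pairs within runs, while 40.3% of the single partners of those pairs were. Of the tight-run clusters found in both replicates, 158 of 188 (84.0%) had at least 1 further such cluster in their run. Every run holds at least 3 clusters, so such a share is high even without any link between neighbours. The same share for the other tight-run clusters was not computed.

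The same spacing rule was applied to each replicate's own list. Those lists are shorter, with median neighbour distances of 15896.5 and 14301.5 bp on these arms, and fewer neighbours are then close by construction. In replicate 1, 99 of 4174 clusters (2.37%) lay in tight runs, in 81 runs of at most 6 clusters. In replicate 2 it was 132 of 4513 (2.92%), in 111 runs, again of at most 6. Of these, 46 of the 99 in replicate 1 and 46 of the 132 in replicate 2 overlapped a tight-run cluster of the other replicate. In replicate 1, 57 of the 99 overlapped a tight-run cluster of the combined list, and in replicate 2 it was 94 of the 132. Only 33 of the 553 (5.97%) lay on a tight-run cluster of each replicate list, and 10 of these were on X.

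X held the largest share of clusters in tight runs in the combined list. There 138 of 1417 clusters (9.74%, 95% interval 8.24 to 11.4%) belonged to tight runs, or 6.15 per Mb. The autosomal arms had 109 of 1395 on 2R (7.81%), 125 of 1745 on 3R (7.16%), 99 of 1384 on 3L (7.15%) and 82 of 1241 on 2L (6.61%, 5.29 to 8.14%). The intervals of X and 2L just fail to overlap, while those of 2R, 3L and 3R overlap each other and that of X. Over all lengths 2R was denser in clusters than X, with 70.6 against 68.3 per Mb. In the replicates' own lists the shares were highest on 3L in replicate 1 (3.13%, with 3.04% on X) and on X in replicate 2 (4.86%, with 3.51% on 3L), and lowest on 3R in replicate 1 (1.52%) and on 2L in replicate 2 (1.68%). Tight-run clusters of X had a median log2 score of 0.44, and those of each other arm had 0.37 to 0.38. The remaining clusters differed in the same way, with 0.45 on X and 0.39 on each other arm.

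**Figure D5:**
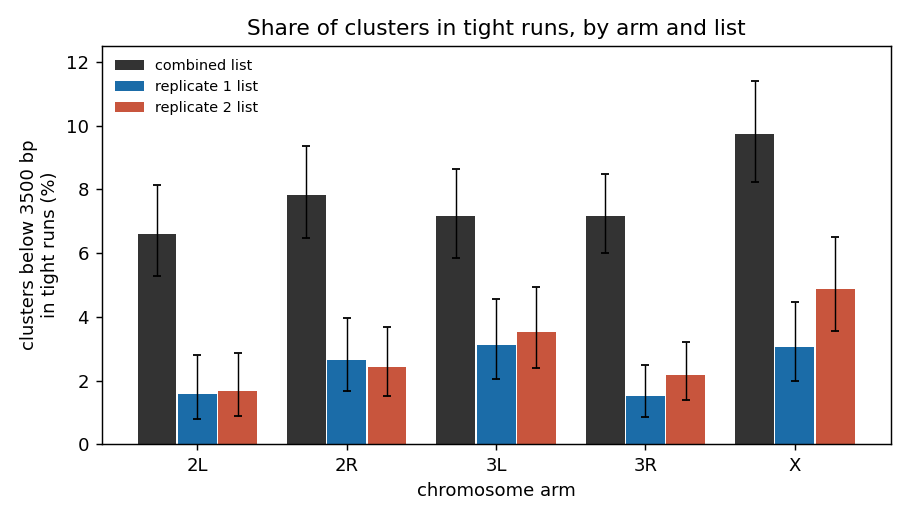
Share of clusters below 3500 bp that lie in tight runs (vertical axis, percent) on each large arm (horizontal axis), with the rule applied to the combined list and to each replicate's own list. Bars carry exact 95% intervals over clusters. X is highest in the combined list (9.74%) and in replicate 2 (4.86%), and the replicate lists, which hold fewer clusters, lie lower on every arm.

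Replicate support of tight-run clusters ran from 27.3% found in both on 3L (18.8 to 37.1%) to 39.0% on 2L (28.4 to 50.4%), with wide, overlapping intervals. The other clusters below 3500 bp had 46.6% on 3L, 44.8% on 2L and 43.8 to 44.7% on the remaining arms. On 3L 26.3% were found in replicate 2 only, the largest such share of the 5 arms.

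Tight runs were scattered along the arms. Of 122 windows of 1 Mb, 12 held no tight-run cluster, the median was 4 and the highest 15. That window, 19000001 to 20000000 on 2R, had 75 clusters below 3500 bp, and 5 of its 15 tight-run clusters were found in both replicates. The next was 1000001 to 2000000 on X, with 14 of 95, also with 5 found in both. Windows with more clusters had more tight-run clusters (Spearman 0.723 over windows), which the spacing rule brings with it. On the scale of 100 kb the highest count was 6, on 2R at 19700001 to 19800000, where 1 of the 6 was found in both replicates, and on 3L at 16500001 to 16600000, where 2 were. In the 2 Mb of each arm next to the centromere 13 of 337 clusters (3.86%) lay in tight runs, against 7.89% elsewhere. On 2R it was 0 of 42. The arms hold 7182 such clusters on 119 Mb, so over the 5 arms together clusters were sparser next to the centromeres. Sparser clusters have fewer close neighbours by the spacing rule. On 3R, where that stretch held 119 clusters, the most of any arm, 5 of them (4.20%) lay in tight runs, against 7.38% elsewhere. Whether density accounts for the lower shares was not tested, and no share at equal density was computed.

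Clusters just inside and just outside the limits of the rule are given without a test. The 30 tight-run clusters whose farther neighbour lay more than 4900 bp away had a median log2 score of 0.40, with 11 found in both replicates. The 28 clusters just outside, with the farther neighbour at up to 5100 bp, had 0.43 and 14. The 30 clusters of 3500 bp or more that had both neighbours close were stronger, with a median log2 score of 0.68, and 28 of them were found in both replicates.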

How the data were processed

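CP190 was mapped by ChIP-seq in 2 ChIP samples with 2 inputs. The submitters' processing notes name Bowtie 0.12.7 as a tool, and coordinates are on FlyBase release 5, per the file headers. The authors deposited 1 list of enriched regions per ChIP replicate and 1 combined list. Which peak caller and thresholds were used, and how the combined list was made, is not stated in the labels or file headers. The deposited values are treated as log2 scores, because 2 raised to the value, scaled by 1 constant per list, gave ratios of whole numbers (denominator at most 2000, relative tolerance 1e-12) for 7954 of 7960, 4461 of 4461 and 4900 of 4900 clusters (combined, replicate 1, replicate 2). With other bases at most 0.531% did so. Depth is unknown.

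Computation used Python 3.11.15 with NumPy 2.4.6, pandas 2.3.3, SciPy 1.17.1 and matplotlib 3.10.9, and was tested on simulated lists. Clusters with both neighbours close were compared, without tests, with clusters having 1 or none. Named clusters follow a rule: the 10 runs with most clusters (ties by shorter mean midpoint distance), every cluster of the first 3, the run with most clusters and the strongest tight-run cluster of each arm, the 3 tightest runs, the 10 strongest tight-run clusters found in both replicates and the 3 strongest found in neither. Fully supported runs, neighbours of strong clusters and the clusters of the X run were added after their values were seen. The tight-run clusters and all comparisons were chosen with earlier results of these data known. Distance, length, merging, overlap and list were varied. No sequence is shown, as no release 5 genome was used.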

Additional observations from a re-analysis of the deposited data

How the results depend on the processing

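Over 7 results and 37 alternative values, 23 stayed within the 95% interval of the value reported above, or within 1.5-fold for the number of clusters, and 14 moved beyond it. The number of tight-run clusters was 285 at a midpoint distance of 4000 bp, 886 at 6000 bp, 148 with neighbours taken only over clusters found in a replicate and 60 above the median log2 score. The share of clusters in tight runs was 3.97% at 4000 bp, 12.3% at 6000 bp, 6.60% with clusters less than 200 bp apart merged and 3.10% with neighbours found in a replicate. A shorter distance and fewer clusters lower both by construction. At 1301 bp or more, 45.0% of tight-run clusters were found in both replicates and 23.4% in neither. With 1 replicate left out, 42.7 to 52.1% were found in the other, against 60.8% in at least 1, and the rule applied to the other replicate's own list gave 2.37 to 2.92%. Median log2 score and median length kept within their intervals in every alternative run, as did the support shares under the other overlap rules, distances, length limit and merging. No paired analysis was possible because no test was run and the inputs have no list of their own here. The depth behind weak clusters is unknown.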
